A study of Mus musculus with 2 samples.

Results

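Ybx1, Ybx2, Ybx3, Zar1 and Zar1l encode proteins that package and store messenger RNA, and they are described here as possible RNA targets of another RNA-binding protein, ELAVL2, in the newborn mouse ovary. All peaks paired with one of these 5 gene symbols in the authors' deposited gene table were taken, out of 11969 genes that the table pairs with a peak. The 5 genes had 17 peaks inside 3 of them and 2 peaks upstream, which are kept apart below. The study had 1 ELAVL2 RIP sample and 1 input sample, both from ovaries of mice at P0 (the day of birth) with no genotype or other treatment stated in the labels. In RNA immunoprecipitation and sequencing (RIP-seq) an antibody, here a commercial ELAVL2 antibody on protein G beads, pulls a protein from a lysate with the RNA held on it. The labels describe 100 ovaries homogenised together and 5% of the lysate kept as input, so each sample is a pool of animals. No control pulldown is among the samples, so RNA bound to ELAVL2 and RNA retained in another way cannot be told apart.

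Y-box proteins carry a cold shock domain and coat messenger RNA into particles that are translated poorly. YBX1 is made in most tissues. YBX2, also called MSY2, is specific to germ cells and is needed in mouse oocytes for stable maternal messenger RNA, and YBX3, also called MSY4, is abundant in the germ line of the testis. ZAR1 and its relative ZAR1L are zinc finger proteins of oocytes that bind maternal messenger RNA, and ZAR1 is known for holding such RNA near mitochondria in growing mouse oocytes. ELAVL proteins are known for binding U-rich and AU-rich stretches, often in 3' untranslated regions.

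The RIP had 172711531 aligned tags and the input 210270620. At most 1 tag was kept per position and strand, which left 13787676 RIP tags and 19479946 input tags. From them the authors called 28332 peaks. A peak's pileup is the number of RIP tags over its summit. Its input level is the local input scaled to the RIP depth, with 1 input tag worth 0.708, and its fold is the RIP pileup over the input level with 1 added to both. These values and the -log10 q of a peak are the authors', except for the input level, which was computed from pileup and fold. Each sample stands alone, so no value has a replicate check, and intervals are exact Poisson 95% intervals that cover counting error only. The peak list holds no expression values, so the cell content of the samples could not be checked from it. A peak overlapped 4 of 7 oocyte markers (Ddx4, Dazl, Sycp3 and Kit), and none overlapped Figla, Nobox or Sohlh1. It overlapped 0 of 5 pregranulosa markers and 0 of 3 stromal markers. Of all protein-coding genes 23.4% were overlapped, so a count of 0 in lists this short is near that share. Length was not taken into account. Figla, Nobox and Sohlh1 are 4.50, 6.40 and 4.25 kb long, and the oocyte markers with a peak 13.7 to 81.7 kb. Kitl, a pregranulosa marker without a peak, is 84.8 kb long. Amhr2, of the pregranulosa markers, was paired with 3 peaks outside it.

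A peak overlapped 3 of the 5 genes, all of them Y-box genes. Of 21900 protein-coding genes of the RefSeq annotation 23.4% were overlapped by a peak, and of the 8396 between 4.249 and 23.593 kb, the lengths of the shortest and the longest of the 5 genes, 15.8% were. With 5 genes and 1 sample of each kind this is a description and carries no test. Ybx3 held 9 peaks, Ybx2 6 and Ybx1 2, against a median of 2 over the 6158 genes overlapped by a peak. The best fold was 6.53 in Ybx2, 3.002 in Ybx3 and 2.11 in Ybx1, against a median best fold of 4.38 over the same 6158 genes. Ybx2 therefore ranked above 81.3% of them by best fold, Ybx3 above 23.9% and Ybx1 above 6.01%. Zar1 and Zar1l had no peak inside them. With only peaks of fold 3 or more the overlapped genes were Ybx2 and Ybx3 (2 of 5, where 18.1% of protein-coding genes were overlapped), and with only peaks of pileup 20 or more they were the same 3 genes (where 17.1% were).

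**Figure D1:**
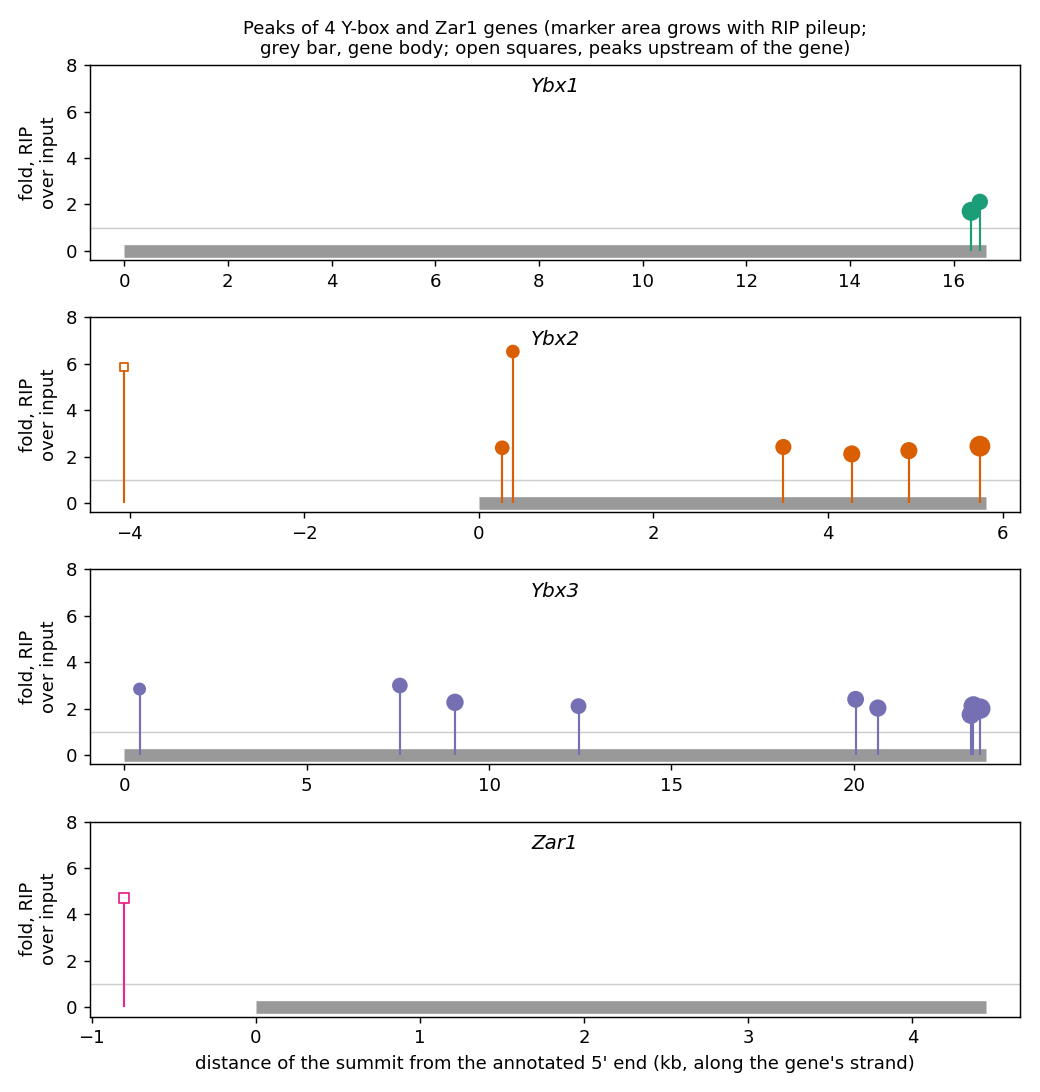
Fold of RIP over input (vertical axis) of each peak against the distance of its summit from the annotated 5' end of its gene in kb, for Ybx1, Ybx2, Ybx3 and Zar1, with marker area growing with RIP pileup and open squares for peaks upstream of a gene. Ybx1 has its 2 peaks at the 3' end, Ybx2 and Ybx3 have peaks along the gene, the tallest at 6.53 near the 5' end of Ybx2, and Zar1 has none inside it.

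Ybx2, the germ cell Y-box gene, lies on the plus strand of chromosome 11 (69935796 to 69941605, mm10, in the authors' deposited table). Its highest fold was near the 5' end, at a peak 82 bases long whose summit lay 389 bp into the gene. There the RIP pileup was 24 (15.4 to 35.7), against an input level of 2.83 (0.771 to 7.25) from 4 input tags, for the fold of 6.53 (-log10 q 10.4). Among 1184 peaks of the whole list with an input level within 10% of this one the median fold was 4.44, and the Ybx2 peak was above 92.4% of them. The RefSeq promoter table gives 2 start sites for Ybx2, and this peak lies wholly in the window of the second, with its summit 143 bp before that site. Its sequence is shown because it is the peak with the largest fold of all 17 and the one whose bases the reference tables hold in full (GRCm38.p6, chr11:69936164-69936245, plus strand, from RefSeq; capitals mark the summit and 5 bases on each side).
Ybx2 peak: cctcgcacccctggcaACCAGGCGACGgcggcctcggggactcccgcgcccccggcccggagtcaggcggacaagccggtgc
G and C made up 79.3% of these bases, against a median of 52.4% over 32851 stretches of the same length and place in the RefSeq promoter windows of all genes, and 96.8% of the stretches had less. Those stretches lie before a start site and were not picked as peaks or as transcribed bases, whereas this peak lies inside the gene. T, which is U in the RNA, occurred 6 times in the 82 bases and never 2 in a row. Neither TTTTT nor ATTTA, letters of the kind ELAVL proteins are known to bind, was found on the gene's strand or on the opposite one, and 16.4% of the stretches held TTTTT and 12.3% ATTTA on either strand. This says only that those letters are not in this window, and 36-base tags extended to 50 bp do not place the bound bases.

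The other 5 Ybx2 peaks had folds between 2.11 and 2.45. The peak nearest the 5' end (69935921 to 69936099) had a RIP pileup of 30 (20.2 to 42.8) and an input level of 12.03 (7.01 to 19.3), for a fold of 2.38. It reached into the windows of both RefSeq start sites, by 28 and by 22 bases, which are printed for comparison with the peak above.
Ybx2 first peak, part in the first window (chr11:69935921-69935948): gtggcagcggcggaggaggcggtggcgg
Ybx2 first peak, part in the second window (chr11:69936078-69936099): gagagccgcagaaagcaggcgg
These parts were 82.1% and 68.2% G and C, with 2 and 0 T. Further along the gene, summits at 60.03%, 73.5% and 84.8% of its length had RIP pileups of 39, 46 and 46 and input levels of 15.6, 21.2 and 19.8. The last Ybx2 peak (69941304 to 69941593) had its summit 69 bp before the annotated 3' end. It had the highest pileup of the 17 peaks, 76 (59.9 to 95.1), over an input level of 30.4 (22.0 to 41.0), at a fold of 2.45 (-log10 q 7.78). Its fold was above 95.9% of the 710 peaks with an input level within 10% of its own, whose median fold was 1.92. The other 4 were not placed so high among peaks of like input level: the peak nearest the 5' end was above 16.8% of them, and those at 60.03%, 73.5% and 84.8% of the gene's length above 44.5%, 44.7% and 55.7%. All 6 Ybx2 peaks were paired with Ybx2 alone.

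A further peak was paired with Ybx2 from outside, at 69931683 to 69931767, 4029 bp upstream. It had a RIP pileup of 9 (4.12 to 17.1) over 1 input tag, an input level of 0.708 (0.0179 to 3.94), and a fold of 5.86. The authors' table lists no gene overlapping it and pairs it with Ybx2 alone, and whether it belongs to a Ybx2 transcript was not tested.

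**Figure D2:**
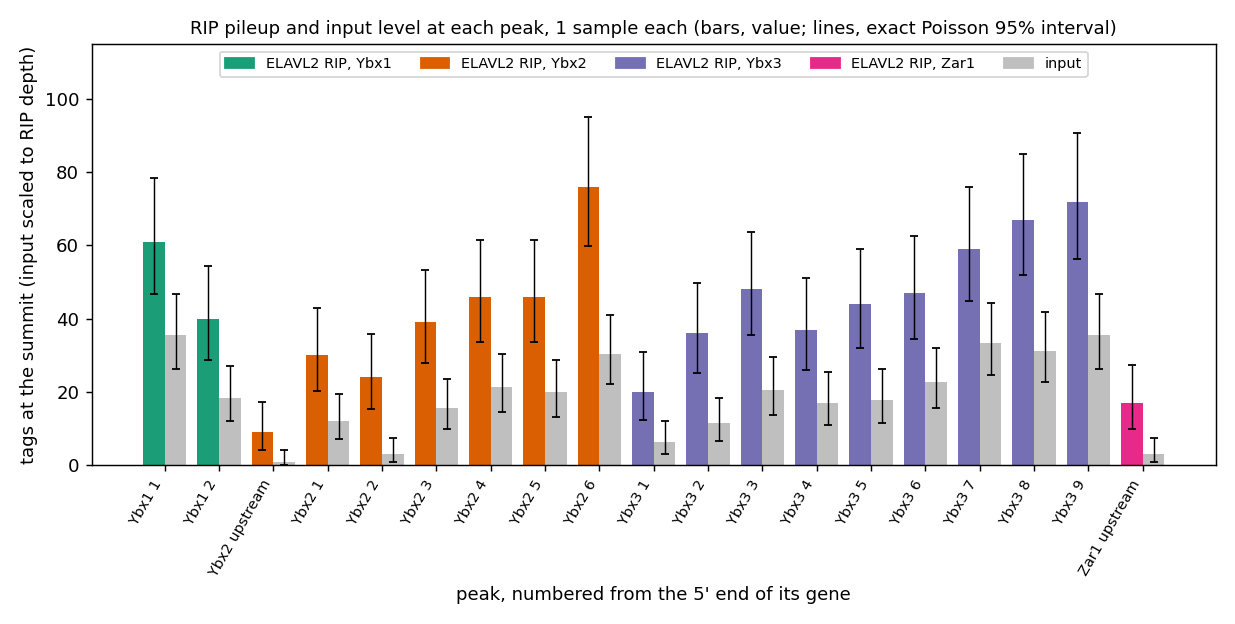
RIP pileup (coloured bars) and local input level scaled to the RIP depth (grey bars), in tags at the summit, for each of the 17 peaks inside Ybx1, Ybx2 and Ybx3 and the 2 upstream peaks, numbered from the 5' end of the gene, with exact Poisson 95% intervals. RIP pileups inside the genes run from 20 to 76 and input levels from 2.83 to 35.4, and the second Ybx2 peak has the smallest input of those inside a gene.

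Ybx3 lies on the minus strand of chromosome 6 (131364855 to 131388476). Its 9 peaks were spread over the gene and had a narrow range of folds, 1.75 to 3.002. The highest fold was at 131380874 to 131380931, 32.0% of the way along the gene, with a RIP pileup of 36 (25.2 to 49.8), an input level of 11.3 (6.47 to 18.4) and a -log10 q of 5.24. The second highest, 2.85, was the peak nearest the 5' end (131388010 to 131388100), with the lowest pileup of the 9, 20 (12.2 to 30.9), over an input level of 6.37 (2.91 to 12.1). These intervals of RIP pileup and input level are wide, and a fold of 3.002 has a counting interval of 2.13 to 4.13 from the pileup alone, so the order of the Ybx3 peaks by fold is not settled at this depth.

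The 3 Ybx3 peaks nearest the 3' end lay side by side, with summits 155, 345 and 411 bp before it. They had the highest RIP pileups of the gene, 72, 67 and 59, and the highest input levels, 35.4, 31.1 and 33.3, and their folds were 2.01, 2.12 and 1.75. The other 4 peaks had pileups of 37 to 48 over input levels of 17.0 to 22.6 and folds of 2.03 to 2.41. Within Ybx3, then, pileup was highest at the 3' end and fold was not, though the order by fold is not settled. Among peaks with an input level within 10% of their own, the 3 at the 3' end were above 70.2%, 80.3% and 17.5% by fold. The Ybx3 peak of highest fold was above 64.0% of such peaks, and the one nearest the 5' end above 7.10%. The other 4 were above 19.1% to 62.3%. In all, 8 of the 9 Ybx3 peaks were also paired with a gene that they do not overlap, Styk1 or the small nucleolar RNA gene Gm22362. Gm22362 lies inside Ybx3 in the RefSeq annotation (131380273 to 131380406), and the best Ybx3 peak starts 467 bp from it without touching it.

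Ybx1 lies on the minus strand of chromosome 4 (119277981 to 119294604) and had 2 peaks, both in the last 10% of the gene. At 119278050 to 119278117 the RIP pileup was 40 (28.6 to 54.5) over an input level of 18.4 (12.02 to 27.0), for a fold of 2.11 (-log10 q 2.42). At 119278189 to 119278270 the pileup was 61 (46.7 to 78.4) over an input level of 35.4 (26.3 to 46.7), for a fold of 1.70 (-log10 q 1.65). Both folds were below the median of peaks of like input level, 2.28 and 1.88. The second was above only 0.282% of all peaks, and with -log10 q of 3 or more Ybx1 had no peak. The summits were 118 and 285 bp before the 3' end in the authors' deposited table, and 772 and 939 bp before it in the RefSeq annotation, whose Ybx1 body reaches further (119277327 to 119296265).

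Ybx1 has processed copies in the genome, and tags of 36 bases can fit more than one of them. The copy Ybx1-ps2 on chromosome 6 was paired with a peak at 37686044 to 37686109, listed as 130 bp downstream of it in the authors' deposited table and inside its longer RefSeq body (37685637 to 37687305). That peak had a RIP pileup of 54, an input level of 26.2 and a fold of 2.02, values within the range of the Ybx1 peaks except for -log10 q, which was 3.04. None of the 17 peaks had a twin elsewhere with the same length, summit place, pileup and fold. This rule asks for exact equality, so it cannot show whether tags were shared with a copy that differs in any of these. Whether tags of the Ybx1 messenger RNA and of its copy were placed on each other was not tested.

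Zar1, on the minus strand of chromosome 5 (72576806 to 72581254), had no peak inside it in either annotation. The peak nearest to it, at 72581946 to 72582095, was 691 bp upstream, with a RIP pileup of 17 (9.90 to 27.2), an input level of 2.83 (0.771 to 7.25) from 4 input tags, a fold of 4.70 (-log10 q 5.18). It lies inside a neighbouring gene, Gm5868 in the authors' deposited table, which RefSeq lists over nearly the same span (72581638 to 72587550) as the transcribed pseudogene Slc10a4l. Called peaks carry no strand, so this signal cannot be assigned to Zar1. Zar1l, also on chromosome 5 (150507055 to 150518194 in RefSeq), was paired with no peak, and the nearest one was 9452 bp away inside Fry. A gene without a peak can be one whose RNA was not enriched or one with too few tags, and these cannot be told apart here, since levels of genes without peaks were not analysed here.

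Most peaks of the 3 Y-box genes lay at input levels above the median. The peaks were called from pileup and input level together, so this describes called peaks only. Set against the 19371 peaks of the list that lie in exactly 1 gene, 15 of the 17 had an input level above the median of 7.79 and 15 a pileup above the median of 27, while 16 had a fold below the median of 3.28. The medians of all peaks, those outside genes included, were 5.66, 24 and 3.59. The exception in fold was the 82-base Ybx2 peak. Set against peaks with an input level within 10% of their own, 8 of the 17 were above the median fold, 5 of them in Ybx3, 3 in Ybx2 and 0 in Ybx1. The input level equalled a whole number of input tags, within 0.001, at 17 of 17 of these peaks and at both upstream peaks, against 74.4% of all peaks, so at these sites it can be read as input tags over the summit, between 4 and 50 inside the genes. With 1 tag of 50 bp allowed at each position of each strand, no pileup can exceed 100, and the 17 pileups were 20 to 76. Of the aligned tags 7.98% in the RIP and 9.26% in the input were kept. Further tags at a filled position are not counted, so high pileups and input levels can be too low. The Poisson intervals do not cover this, and how far it changed the folds was not tested.

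**Figure D3:**
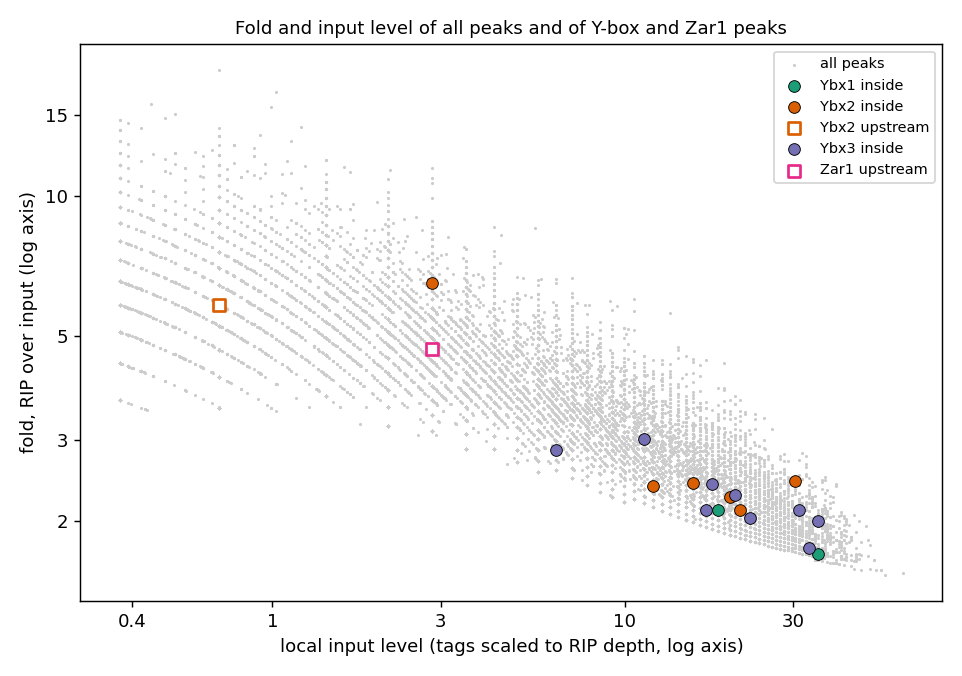
Fold of RIP over input against local input level in tags scaled to the RIP depth, both on log axes, for all 28332 peaks (grey) and for the peaks of Ybx1, Ybx2 and Ybx3 (filled circles) and those upstream of Ybx2 and Zar1 (open squares). All but 1 of the 17 peaks inside the genes lie at input levels of 6.37 or more, with folds of 1.70 to 3.002, and the remaining one, in Ybx2, lies at 2.83 with a fold of 6.53.

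Their position along the genes was less uniform. Of the 17 summits, 6 lay in the last 10% of the gene body, 2 in Ybx1, 1 in Ybx2 and 3 in Ybx3, and 3 in the first 10%, 2 in Ybx2 and 1 in Ybx3. Among all 19371 peaks in exactly 1 gene, 46.6% had their summit in the last 10%. Those 6 were also the summits within 500 bp of the annotated 3' end, and with the RefSeq 3' ends the number was 4, without Ybx1. Exons were not used here, so these are positions along whole gene bodies with introns.

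Other genes of oocyte messenger RNA storage and clearance gave a wider range. Of 16 such genes 12 were overlapped by a peak, where 23.4% of protein-coding genes were. With only peaks paired with exactly 1 gene 5 of the 16 were, and the share of protein-coding genes under that rule was not computed here. Many of the 16 genes are longer than the 5 Y-box and Zar1 genes, up to 147 kb in Rbpms, and length was not taken into account. Eif4e1b, Pabpc1, Pabpc1l and Rbpms had no peak. Patl2, a translational repressor of oocytes, reached a fold of 9.61, the best of its 4 peaks, where the peak covered a second gene too. Btg4, an adaptor that brings the CCR4-NOT deadenylase to maternal messenger RNA, was overlapped by 6 peaks, the best with a fold of 5.42, a pileup of 28 and an input level of 4.35, near the values of the 5' peak of Ybx2. Cnot6l and Cnot7, deadenylase subunits, had 31 and 4 peaks with best folds of 6.07 and 6.94. Ddx6, a helicase found with Y-box proteins in stored particles, had 14 peaks and a best fold of 4.34, and its partners Lsm14a, Lsm14b and Eif4enif1 had 1, 3 and 2 peaks and best folds of 1.95, 2.50 and 2.24, close to those of Ybx1 and Ybx3. The best Eif4enif1 peak covered a second gene too. Cpeb1, which binds the cytoplasmic polyadenylation element, had 14 peaks (best fold 4.48), Dazl, a germ cell translation factor, 12 (4.31), Eif4e, the cap-binding factor, 12 (3.27), and Zfp36l2, a decay factor of AU-rich RNA, 1 (2.12).

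Of 4 other genes with a cold shock domain 2 were overlapped by a peak, against the same share of 23.4%. With only peaks paired with exactly 1 gene 1 of the 4 was, and the share under that rule was not computed here. Length was not taken into account, and Lin28b is 110 kb long. Lin28b and Lin28a, inhibitors of let-7 maturation, had 11 peaks and a best fold of 10.5, and 1 peak of fold 4.08. The best peak of Lin28b had a pileup of 17 over an input level of 0.708, whereas the single Lin28a peak had a pileup of 58 over 13.4. Carhsp1 and Csdc2 had no peak. By best fold, Ybx2 at 6.53 lay between Lin28a and Lin28b, and Ybx1 and Ybx3 lay below both, which is a description with no test. By largest -log10 q, Ybx2 at 10.4 lay below both Lin28a at 13.9 and Lin28b at 13.5.

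**Figure D4:**
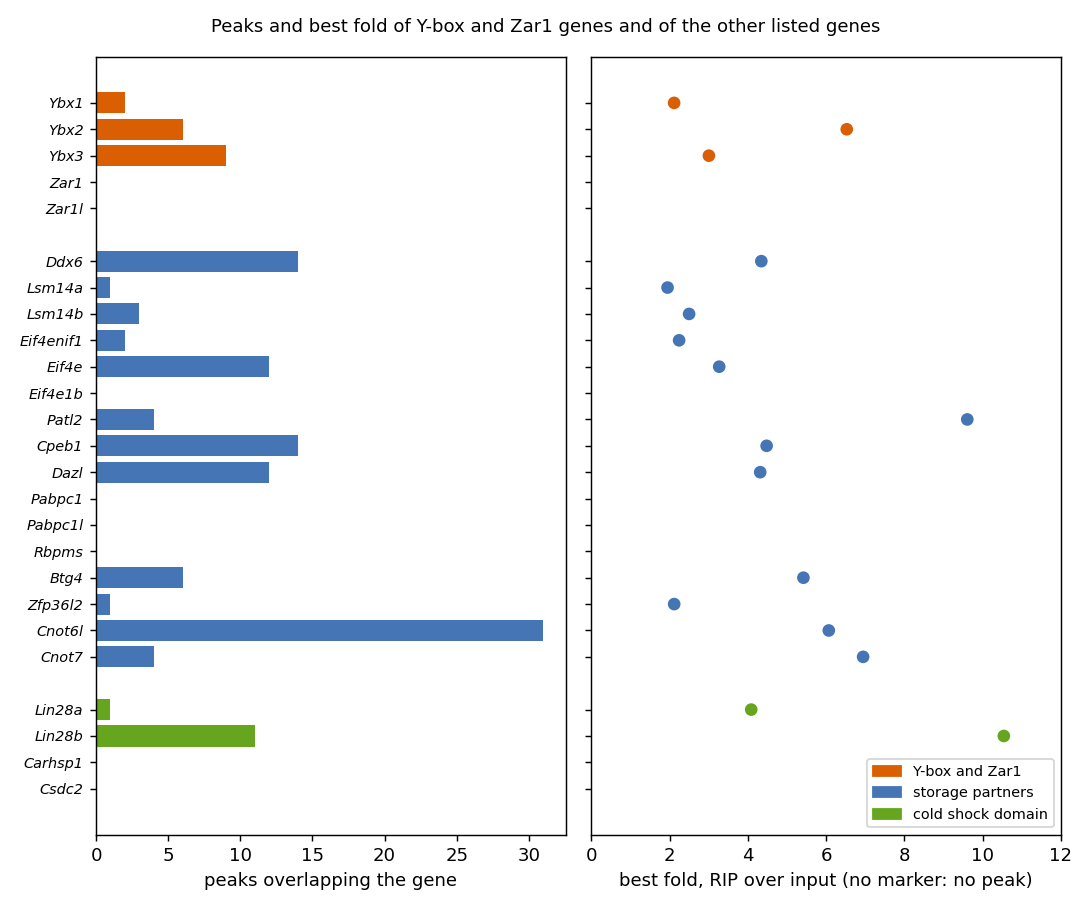
Number of peaks overlapping each gene (left, bars) and best fold of RIP over input (right, points; no point where a gene has no peak) for the 5 Y-box and Zar1 genes, 16 other genes of messenger RNA storage and clearance and 4 other cold shock domain genes. Ybx3 has 9 peaks and Ybx2 6, Cnot6l has the most with 31, and the highest best fold is 10.5 in Lin28b.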

How the data were processed

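The submitters' processing notes name MACS2 (2.1.0.20140616), TopHat2 (2.0.8b), FastQC (0.11.2), CASAVA (1.8.2) and the build mm10. Lanes, 3 of RIP and 3 of input, were pooled by the authors before they called peaks at a q cutoff of 0.05 with tags of 36 bases extended to 50 bp and 1 tag kept per position and strand, per the file headers. The deposited signal is the RIP pileup at the summit. The deposited fold was read as a ratio, the pileup plus 1 over the scaled local input plus 1. The added 1 was set here and was not read from the file headers. The caller was made for DNA and uses neither splicing nor strand, so overlapping and antisense genes cannot be told apart. The -log10 p and -log10 q were deposited by the authors and only describe, rank and filter peaks. The sources used here do not say how the deposited gene table was made. Of its 85730 rows 42176 exact repeats were dropped.

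The input level was computed from pileup and fold, and Poisson -log10 p recomputed from it differed from the deposited ones by at most 5.62e-05. All 5 symbols matched RefSeq GRCm38.p6, the assembly of mm10, as did 9620 of 11677 symbols of the table. The 5 genes, the lists of 16 and 4 other genes and the rule that all listed genes with a peak may be named were chosen with earlier results of these data known, and some genes planned for them are not reported here. With 1 sample of each kind no test was run. A planned comparison of protein sequences was not run, since proteins were not used here. The computation was tested on simulated data. Alternatives were stricter q, pileup and fold thresholds, pairing rules, merging within 500 bp, reference gene bodies and a fold without the pseudocount. Scripts ran under Python 3.11.15 with scipy 1.17.1, numpy 2.4.6, matplotlib 3.10.9 and pandas 2.3.3.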

Additional observations from a re-analysis of the deposited data

How the results depend on the processing

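The number of Y-box and Zar1 genes overlapped by a peak was 3 in the authors' table and 2 to 4 under the alternatives: 2 with -log10 q of at least 3 or fold of at least 3, both without Ybx1, and 4 when upstream pairs were counted, which adds Zar1. With fold of at least 3 the share of protein-coding genes was 18.1%. It was not computed here for -log10 q of at least 3 or for upstream pairs. Counting pairs outside genes raised the genes of the whole list from 6158 to 11969. The 17 peaks of the Y-box genes became 9 with -log10 q of at least 3, 2 with fold of at least 3 (1 in Ybx2 and 1 in Ybx3) and 9 with peaks paired with exactly 1 gene, where Ybx3 kept 1 of 9 and its best fold was 2.85. Merging peaks within 500 bp left 13. With peaks paired with exactly 1 gene the count of storage genes fell to 5 of 16, against 12, and that of other cold shock domain genes to 1 of 4, against 2. The share of protein-coding genes under this rule was not computed here. Without the pseudocount the best fold was 8.48 in Ybx2, 3.18 in Ybx3 and 2.17 in Ybx1. RefSeq gene bodies and peaks overlapping exactly 1 gene left all 17 peaks. No replicate could be left out, with 1 sample of each kind. No paired analysis was possible because there is 1 RIP and 1 input sample. Depth limits the 5' Ybx2 peak and both upstream peaks most, which rest on 4, 1 and 4 input tags.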
